A study of Mus musculus with 15 samples.

Results

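Gene expression of PDGFra-positive fibroblasts, sorted from kidneys of adult C57BL/6 mice 3 days after folic acid-induced acute kidney injury, was compared with that of the same sorted population from uninjured kidneys. The comparison took 6 of the 15 arrays of the series: 3 of folic acid day 3 (arrays 1, 2 and 3 by the number in their titles) and 3 of uninjured kidney (arrays 13, 14 and 15). Every gene with a probe set that the array's annotation assigns to it alone was taken in. The brightest of those probe sets over the 15 arrays stood for the gene, which gave 17097 genes. Of these, 13523 were bright enough to test. The other 9 arrays held the same sorted cells at folic acid day 7, folic acid day 14 and 14 days after unilateral ureteral obstruction (UUO), and they entered the fit through a shared estimate of the spread between arrays. All groups shared the strain and the sort. The labels give neither sex, age beyond adult, folic acid dose nor any vehicle injection of the uninjured mice, and they do not say how PDGFra was detected. Whether each array stands for its own mouse is not stated, so the p-values rest on a spread between arrays that could be technical.

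Folic acid at a high dose injures the kidney tubules within days, and the epithelium regenerates while activated fibroblasts expand in the interstitium. PDGFra marks interstitial fibroblasts, which secrete little matrix at rest and after injury proliferate, take up smooth muscle actin and lay down collagen. Transforming growth factor beta, Wnt, fibroblast growth factor and retinoid signals are known regulators of these cells.

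The values were log2 intensities, on which a difference of 1 is a 2-fold change. Arrays of 1 group correlated at 0.931 to 0.937 for day 3 and 0.938 to 0.976 for uninjured kidney, against 0.758 to 0.830 between the groups. Pdgfra itself read 6.76, 6.11 and 7.20 in day 3 arrays and 6.43, 5.68 and 5.91 in uninjured arrays, so the groups overlapped (log2 change 0.68, adjusted p = 0.465). Pdgfrb, the related receptor of stromal cells, was bright in both, at 10.07, 10.35 and 10.53 on day 3 and 10.14, 9.76 and 8.68 in uninjured kidney. The mean over 18 fibroblast markers lay at 7.85, 7.63 and 7.85 in day 3 arrays, against 5.87, 5.73 and 5.29 in uninjured arrays. Of the 17 fibroblast markers tested, limma called 9 higher on day 3 and 0 lower, and 8 were not called. Over all genes tested, 10.6% were called higher. The labelled cell type was thus borne out by part of its markers on day 3. In uninjured kidney it was less clear, since some defining markers were dim while others, such as Pdgfrb, were bright. The mean over 18 resident and adventitial fibroblast genes was 6.71, 6.61 and 6.43 in uninjured arrays, against 7.12, 6.99 and 7.02 on day 3. Whether the sorted cells were the same type in both groups was not tested. Cdh11, an adhesion molecule of fibroblasts, read 10.04, 10.04 and 10.10 on day 3 and 4.36, 4.04 and 3.74 in uninjured kidney, and Tcf21, a transcription factor of the kidney stroma, read 10.75, 9.68 and 10.07 on day 3 and 5.48, 6.02 and 5.45 in uninjured kidney. Col1a2 was uninformative as a marker, though the mean over 18 fibroblast markers includes it. Its probe set was dim on day 3 (4.31, 3.60 and 4.19) and in uninjured kidney (4.05, 3.71 and 3.94) alike.

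Markers of other kidney cells were measured in the same samples. The mean over 11 proximal tubule markers was 6.65, 6.26 and 6.62 in day 3 arrays, against 8.18, 8.65 and 9.64 in uninjured arrays, and that over 13 distal nephron markers was 5.75, 6.19 and 5.92 in day 3 arrays, against 8.15, 8.53 and 7.81 in uninjured arrays. Neither list overlapped between the groups. Of the lymphocyte markers 7 were tested and of the neutrophil markers 6, and limma called none of them, with 0 and 0 at an unadjusted p under 0.05. Over all genes tested 17.0% were called, so counts of 0 in lists this small do not set them apart. Both lists were dim, with array means of 4.54 to 4.76 over 14 lymphocyte and 4.58 to 4.73 over 10 neutrophil markers. Array medians lay at 4.93 to 5.06. In a bulk sample, fewer cells of a type and less RNA per cell cannot be told apart. The fit was also repeated with the proximal tubule marker mean of each array as a covariate. The count that passed with it is given for the main gene groups below. That mean carries the same ambiguity and did not overlap between the groups. A call lost with it cannot be told apart from lost precision, and a call kept with it is not thereby free of tubule RNA. With the covariate 1 lymphocyte marker was lower. Beyond this fit, the part of tubule RNA in the results was not tested.

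**Figure D1:**
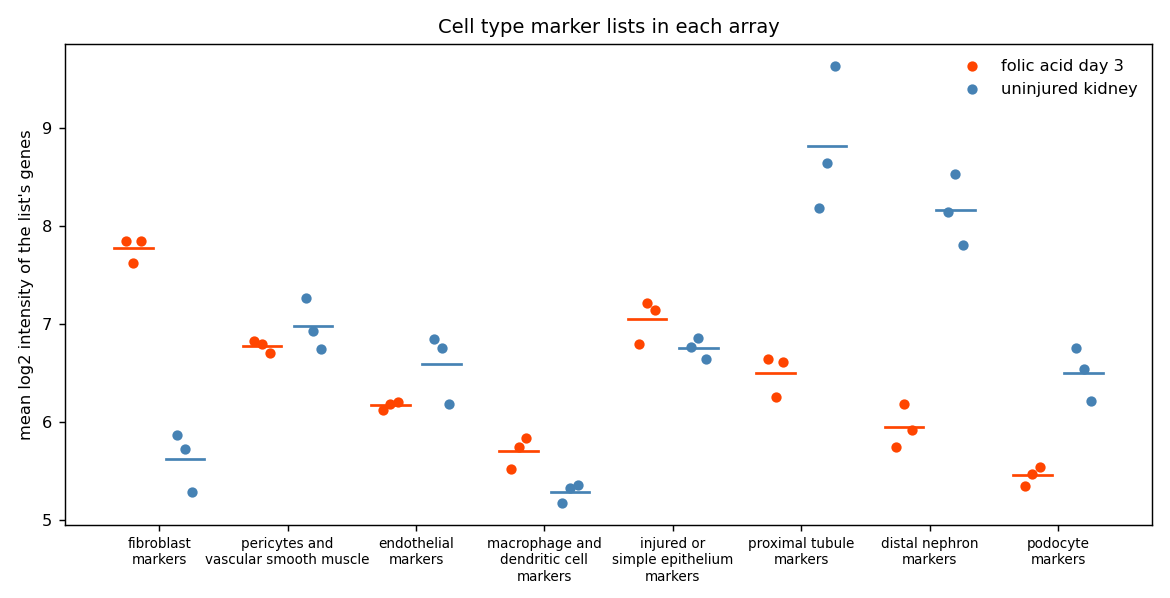
Mean log2 intensity of the genes of 8 cell type marker lists in each array (dots, 3 per group; bars are group means), folic acid day 3 left of uninjured kidney. Fibroblast markers lay at 7.63 to 7.85 on day 3 and 5.29 to 5.87 in uninjured kidney, while proximal tubule markers lay at 6.26 to 6.65 on day 3 and 8.18 to 9.64 in uninjured kidney.

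By limma's moderated test with Benjamini-Hochberg adjustment, 2304 of the 13523 genes passed an adjusted p of 0.05, which is 17.0% of the genes tested. Of these, 1440 (10.6%) were higher and 864 (6.39%) were lower on day 3. These shares are the background for every count below, and a list whose called share lies near them is described without setting it apart. Quantile normalization shifted the split: 49.3% of its calls were higher, against 62.5% of the calls reported here, so counts of higher and lower genes depend on the scaling. The 3 and 3 values did not overlap for 5702 genes, 42.2% of those tested. Of the 2304 calls, 1181 held whichever 1 of the 15 arrays was left out (830 higher, 351 lower), and 596 higher and 223 lower calls held with the proximal tubule covariate. Leaving out uninjured array 14 gave 1463 calls, and leaving out uninjured array 15 gave 1503.

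The 15 largest increases among called genes without overlap included matrix genes and genes outside the matrix. Clca3a1 and Clca3a2, members of the calcium-activated chloride channel regulator family, had the largest changes, 7.03 and 6.67, and the array cannot be relied on to separate these near-identical genes. Matn2, a matrilin that links matrix fibres, read 9.57, 9.31 and 9.52 in day 3 arrays and 3.63, 3.92 and 3.28 in uninjured arrays (log2 change 5.86 ± 0.41 SE, adjusted p = 4.57e-06). Il33, an alarmin cytokine stored in stromal nuclei, read 9.97, 9.68 and 9.60 in day 3 arrays and 3.82, 3.79 and 4.07 in uninjured arrays (change 5.86 ± 0.43, adjusted p = 4.93e-06). Every day 3 array of both genes stood more than 5 log2 units above every uninjured array. Colec12, a scavenger receptor with a collagen-like stem, read 10.68, 10.20 and 10.54 on day 3 and 4.84, 5.53 and 4.71 in uninjured kidney. Lrrn1, a leucine-rich repeat membrane protein known from neurons, read 9.47, 8.39 and 7.97 on day 3 and 3.21, 3.47 and 3.31 in uninjured kidney. Lcn2, the iron-carrier-binding lipocalin used as a kidney injury marker, read 9.03, 9.99 and 9.75 on day 3 and 4.16, 4.07 and 3.99 in uninjured kidney, and Slco2b1, an organic anion transporter, changed by 6.18. The remaining 7 were the collagen genes Col3a1, Col6a1, Col6a2 and Col1a1, the adhesion gene Cdh11, the retinoic acid enzyme Aldh1a2 and the elastic fibre gene Fbln5. The call of each of the 15 held without any 1 array and with the proximal tubule covariate.

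**Figure D2:**
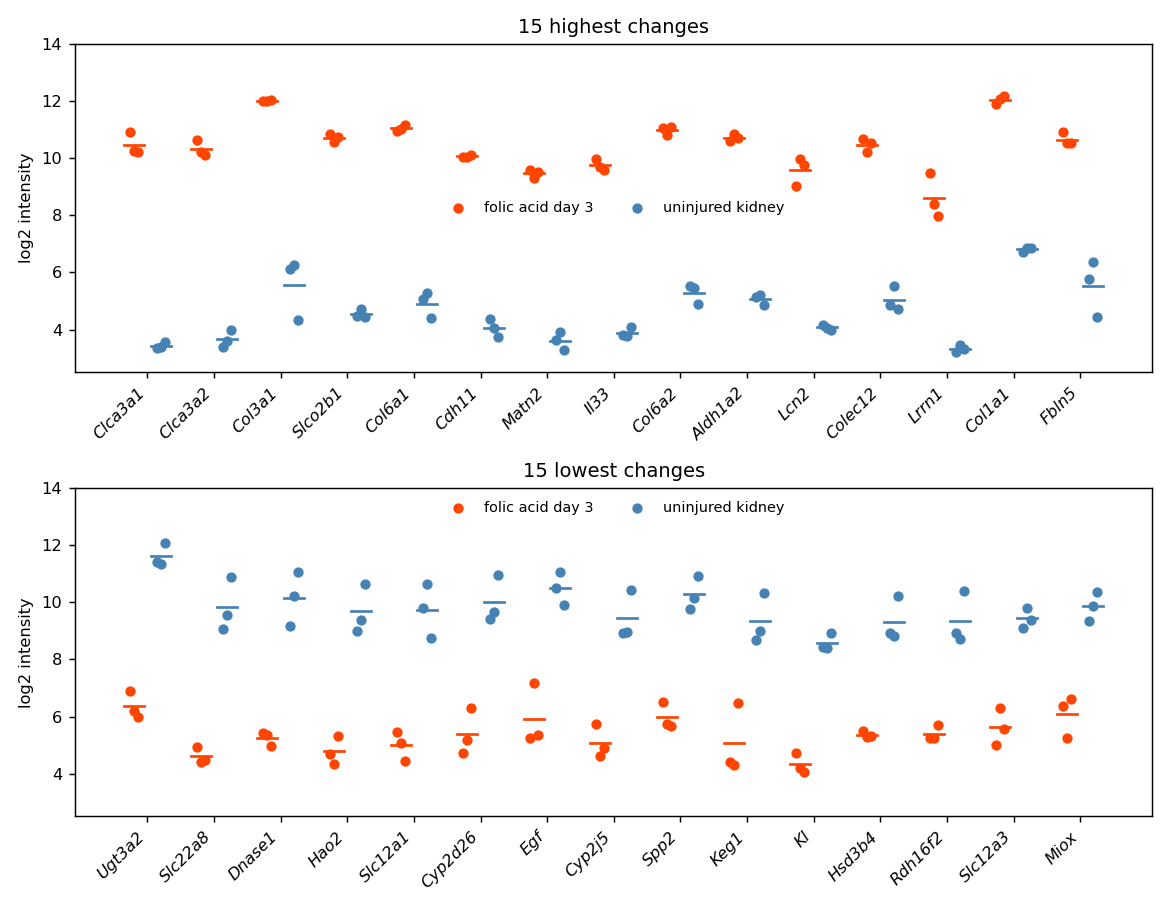
Log2 intensity in each array (dots; bars are group means of 3 arrays) for the 15 called genes with the highest and the 15 with the lowest change, folic acid day 3 left of uninjured kidney. The day 3 arrays of Il33 lay at 9.60 to 9.97 and its uninjured arrays at 3.79 to 4.07, while those of Kl lay at 4.07 to 4.74 on day 3 and 8.41 to 8.92 in uninjured kidney.

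Most collagen genes rose. Of 17 fibrillar and associated collagens tested, 14 were higher and 0 lower, with a median log2 change of 3.99 beside 0.02 for all genes tested. All 14 calls held whichever array was left out, and 13 passed with the covariate. The chains of collagen VI, a beaded filament around cells, changed most after Col3a1. Col6a2 read 11.06, 10.82 and 11.08 on day 3 and 5.52, 5.46 and 4.90 in uninjured kidney (change 5.69 ± 0.28, adjusted p = 1.5e-07). Col5a2, a chain that sets fibril width, read 10.93, 10.39 and 10.68 on day 3 against 6.39, 6.34 and 5.62 in uninjured kidney, and Col14a1, which coats fibrils, 9.30, 8.76 and 9.20 in day 3 arrays and 4.88, 5.14 and 4.48 in uninjured arrays. Col15a1, an anchor of collagen to basement membranes, changed by 4.49. Groups were apart in all 4 genes. The 3 members not called were the dim Col1a2, Col12a1 with a change of 0.45 and Col11a1 with 0.57.

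Enzymes that modify and cross-link collagen moved with it: of 17 tested, 12 were higher and 0 lower (median change 1.07), 8 held without any 1 array, and 7 passed with the covariate. The copper-dependent lysyl oxidases, which form the covalent cross-links, were the largest. Lox read 9.10, 9.43 and 9.53 in day 3 arrays and 5.06, 4.81 and 5.10 in uninjured arrays (change 4.36 ± 0.59, adjusted p = 0.000392). Loxl2 read 9.25, 9.33 and 9.41 on day 3 against 5.02, 4.32 and 4.87 in uninjured kidney, and Loxl1 9.65, 9.75 and 9.95 in day 3 arrays and 4.82, 5.56 and 6.02 in uninjured arrays. All 3 had day 3 arrays above 9 and uninjured arrays at or below 6.02. Serpinh1, the collagen chaperone of the endoplasmic reticulum, changed by 2.69 and Pcolce, an enhancer of procollagen cleavage, by 2.52. Plod1, a lysyl hydroxylase, changed by 3.34, with 2.31 and an adjusted p of 0.0944 with the covariate.

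Of the non-collagen matrix lists, those of elastic fibre, matricellular and proteoglycan genes had many higher calls, as had the basement membrane and protease lists below. Among 9 genes of hyaluronan synthesis, binding and breakdown 0 were higher, beside 10.6% of all genes. In a list this small that count does not set it apart. The hyaluronidase Cemip was the 1 lower gene (change -0.76, list median -0.14). That call passed neither with the covariate nor with the mean of the gene's probe sets. Elastic fibre and microfibril genes had 8 of 14 tested higher and 0 lower (median change 1.62), of which 7 held without any 1 array and 5 passed with the covariate. Fbln5, which organises elastin, read 10.91, 10.52 and 10.52 on day 3 and 5.77, 6.35 and 4.45 in uninjured kidney (change 5.13 ± 0.48). Emilin1, a microfibril glycoprotein, changed by 2.76, while elastin itself (Eln) had a change of 0.30 and an adjusted p of 0.532. Matricellular proteins had 8 of 15 higher and 0 lower (median change 1.78), of which 7 held without any 1 array and 6 passed with the covariate. Mgp, an inhibitor of calcification, read 12.31, 12.37 and 12.43 on day 3 against 9.02, 9.48 and 7.65 in uninjured kidney. Tgfbi, a cell-adhesion protein induced by transforming growth factor beta, read 8.51, 7.58 and 9.13 in day 3 arrays and 4.78, 5.01 and 4.75 in uninjured arrays, and Ccn4 changed by 2.47. Ccn2, often used as a readout of fibrosis, overlapped between the groups, with 11.07, 10.73 and 10.97 on day 3 and 11.73, 11.40 and 10.96 in uninjured kidney. Among small leucine-rich and large proteoglycans 8 of 15 were higher and 1 lower (median change 1.28), but 5 higher without uninjured array 15 and 4 with the covariate. The lower call did not hold without day 3 array 1, any uninjured array or with the covariate. Ogn, a small proteoglycan, read 9.91, 9.15 and 9.34 on day 3 against 4.91, 4.96 and 4.49 in uninjured kidney, and Dcn, which decorates fibrils, 9.89, 10.03 and 10.19 in day 3 arrays and 6.88, 6.51 and 5.51 in uninjured arrays. Prelp changed by 3.47.

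Basement membrane genes split by chain. Of 15 tested, 7 were higher and 2 lower (median change 0.60), with 1 lower without day 3 array 1 or 3 or uninjured array 14 or 15. Col4a2, of the ubiquitous collagen IV network, read 11.09, 11.20 and 11.19 in day 3 arrays and 9.59, 8.74 and 8.16 in uninjured arrays (change 2.33 ± 0.34, adjusted p = 0.000711), and the laminin chain Lama2, found around stromal and muscle cells, 9.42, 9.18 and 9.33 on day 3 against 6.30, 5.79 and 5.96 in uninjured kidney. Col4a3, of the network that podocytes and tubule cells make, read 6.23, 7.65 and 6.72 in day 3 arrays and 8.54, 8.69 and 9.35 in uninjured arrays (change -2.00). So the chains moved in opposite directions without overlap between groups. With the covariate 2 of the 7 higher calls and 0 of the 2 lower calls passed, the 2 higher ones being Col4a2 and Lama2.

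Matrix-degrading proteases and their inhibitors had 12 of 21 tested higher and 1 lower (median change 1.51), with 8 higher calls held without any 1 array and 5 with the covariate. The lower count was 2 without day 14 array 7 and 0 with the covariate. Timp1, a metalloproteinase inhibitor, read 9.99, 10.32 and 10.29 on day 3 and 5.11, 5.14 and 5.17 in uninjured kidney. Mmp3, stromelysin, read 8.46, 8.79 and 7.88 on day 3 against 5.02, 4.92 and 4.97 in uninjured kidney (change 3.41 ± 0.43, adjusted p = 0.000255). The aggrecanase Adamts4 read 6.74, 7.60 and 8.23 in day 3 arrays and 4.57, 4.02 and 4.23 in uninjured arrays, and the related Adamts9 changed by 2.20. Mmp2, the gelatinase of resident fibroblasts, overlapped between the groups, at 6.63, 6.13 and 6.29 on day 3 and 6.83, 6.71 and 5.85 in uninjured kidney. Of 6 genes of plasminogen activation and related serpins, 2 were higher and 1 lower, but the lower call did not hold without any single day 3, UUO or uninjured array or with the covariate. The serpins Serpinf1 and Serping1 changed by 2.96 and 2.73, Serpinf1 with an adjusted p of 0.061 when the covariate was included.

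Contractile and actin cytoskeleton genes had 11 of 25 tested higher and 0 lower (median change 0.91), of which 10 held without any 1 array and 7 passed with the covariate. Acta2, the smooth muscle actin of myofibroblasts, read 12.10, 12.18 and 11.97 in day 3 arrays and 8.31, 8.39 and 8.16 in uninjured arrays. The tropomyosins Tpm4 (10.69, 10.74 and 10.56 on day 3 against 8.17, 7.94 and 6.23 in uninjured kidney) and Tpm2 (11.44, 10.99 and 10.77 in day 3 arrays and 9.33, 8.61 and 7.36 in uninjured arrays), which stabilise actin filaments, and Palld, an actin crosslinker (10.17, 10.62 and 10.21 on day 3 against 7.47, 7.27 and 7.86 in uninjured kidney), were higher in every day 3 array. Markers of mature smooth muscle were not called: Myh11, its myosin heavy chain, had a change of -1.28 (adjusted p = 0.134), and Cnn1, calponin, 0.02. Among 15 integrin subunits 3 were higher and 3 lower. The higher count was 1 without day 3 array 1, 2 or 3 or uninjured array 14 or 15, and the lower count 1 without day 3 array 1 or 3 or uninjured array 15. With the covariate 0 were higher and 1 lower, and with quantile normalization 1 was higher. Itga1, a collagen receptor, changed by 1.88, with an adjusted p of 0.151 with the covariate, and Itga4, a fibronectin and Vcam1 receptor, read 5.44, 5.83 and 6.11 on day 3 against 8.78, 8.20 and 7.77 in uninjured kidney.

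**Figure D3:**
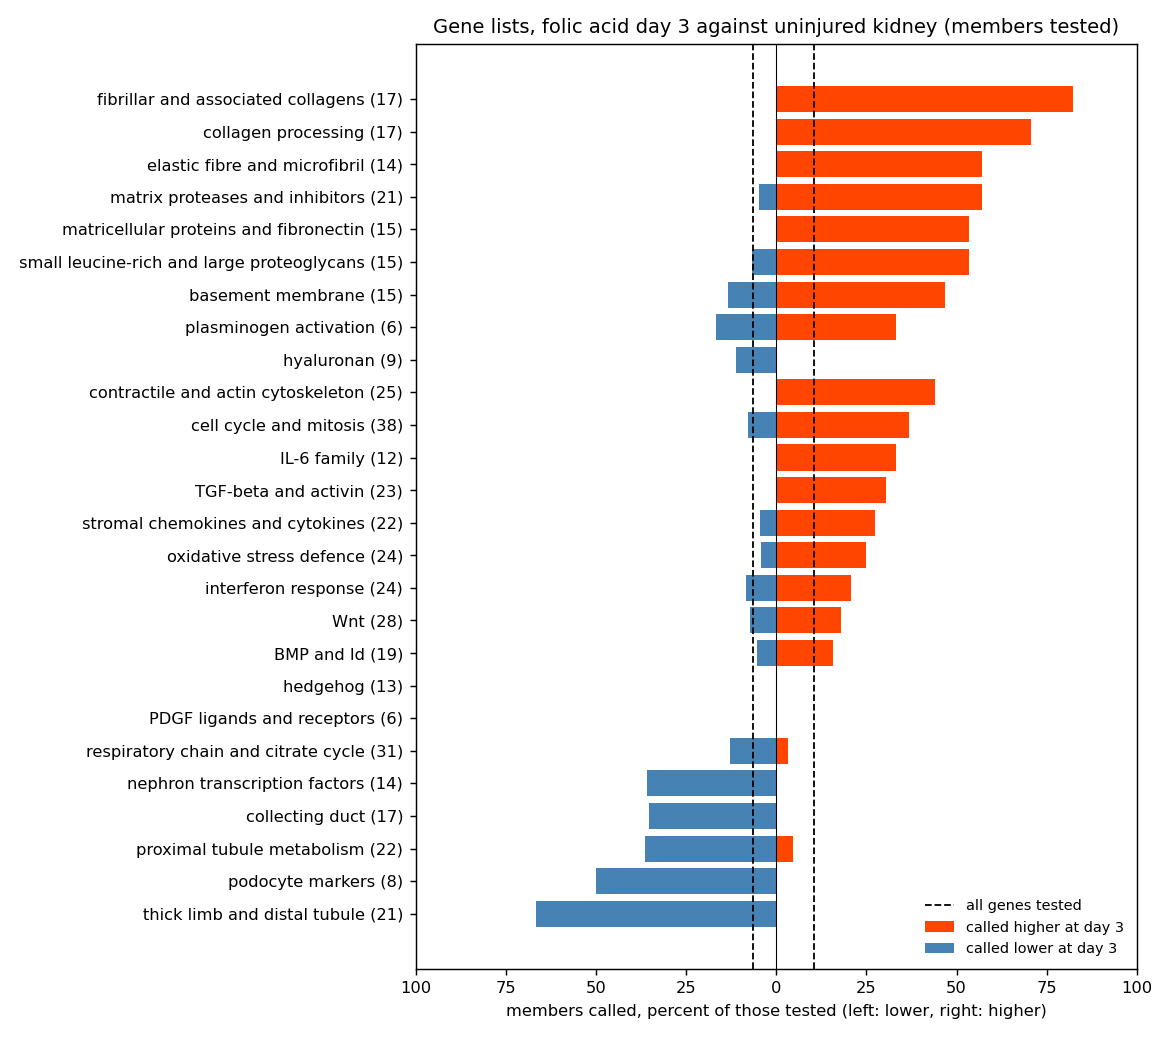
Percent of the tested members of 26 gene lists that were called higher (right) or lower (left) on folic acid day 3 against uninjured kidney, with the number tested in brackets. Dashed lines mark the shares over all genes tested, 10.6% higher and 6.39% lower. Matrix lists other than hyaluronan and the contractile list pass the line on the right. So do others, such as the cell cycle and interleukin-6 family lists. Thick limb, podocyte and tubule lists pass the line on the left, as do some matrix lists such as basement membrane.

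Several mitotic genes were higher on day 3. Of 38 cell cycle genes tested, 14 were higher and 3 lower (median change 0.64). The count of higher calls was 9 without uninjured array 14 and 9 without uninjured array 15, and the lower count 1 without day 3 array 1 or 2 or uninjured array 13 or 14 or with the covariate. Of the higher calls 8 held without any 1 array, and 7 members passed as higher with the covariate. Ube2c, the ubiquitin-conjugating enzyme of the anaphase-promoting complex, read 7.58, 9.26 and 7.93 in day 3 arrays and 6.11, 6.05 and 6.11 in uninjured arrays (change 2.17 ± 0.38, adjusted p = 0.00215). Birc5, survivin of the chromosomal passenger complex, read 6.51, 7.79 and 7.30 in day 3 arrays and 5.20, 5.45 and 5.04 in uninjured arrays, and Anln, the cytokinesis scaffold anillin, 5.72, 6.42 and 5.36 on day 3 against 3.96, 4.37 and 3.87 in uninjured kidney. Cyclin B2 (Ccnb2) read 6.18, 6.97 and 5.59 in day 3 arrays and 4.66, 4.67 and 4.46 in uninjured arrays, and its kinase Cdk1 7.31, 7.67 and 6.54 on day 3 against 5.95, 5.79 and 5.77 in uninjured kidney. No day 3 value of these 5 genes fell within the uninjured range, and in all 5 day 3 array 2 was the highest. Mki67 read 8.83, 9.02 and 7.85 in day 3 arrays and 6.53, 6.13 and 6.09 in uninjured arrays without overlap, yet its adjusted p was 0.051. Cyclin D1 (Ccnd1), the G1 cyclin, was lower, at 6.57, 6.30 and 6.65 on day 3 against 8.60, 8.52 and 8.25 in uninjured kidney (change -1.95 ± 0.18, adjusted p = 2.61e-05). The call of Cdk1 did not hold with the covariate (adjusted p = 0.0619).

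Of 29 DNA replication genes tested, 2 were higher and 1 lower, with 1 higher without day 3 array 3 or uninjured array 14. Rrm2, the regulated subunit of ribonucleotide reductase, held without any 1 array (8.14, 7.89 and 7.31 on day 3 against 4.93, 4.64 and 4.94 in uninjured kidney). Pcna, the polymerase clamp, overlapped between the groups with a change of 0.36. Among 19 p53 targets and cell cycle inhibitors, 3 were higher and 1 lower. The lower count was 0 without any single day 3 or uninjured array, without UUO array 10 or with the covariate, and 2 with quantile normalization. The inhibitors Cdkn1b and Cdkn2c changed by 1.20 and 0.81, and Cdkn2c had an adjusted p of 0.0651 with the covariate. The growth regulator Myc read 7.38, 7.84 and 7.46 on day 3 and 5.97, 5.67 and 5.80 in uninjured kidney (change 1.75 ± 0.27, adjusted p = 0.00104). Translation factors beside it, Eif4a1 and Eif4ebp1, changed by 2.20 and 1.57, in a list of 24 ribosome biogenesis and translation genes with 3 higher and 1 lower, the lower call not holding without day 3 array 2 or 3, uninjured array 14 or 15 or with the covariate.

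Genes of late cell cycle phases often carry CCAAT boxes, bound by NF-Y, and a cell cycle homology region, bound by the DREAM complex, near their start. The 250 bases before the start of Ube2c, Ccnb2 and Cdk1 are shown because these 3 genes, whose values are given above, were called higher and held both motifs. Ect2 was called higher and held both as well, though its call held neither with the covariate nor without every single array, and so did Mki67, Top2a, Cdc20, Kif11, Prc1 and E2f8, which were not called. Capitals mark CCAAT or its reverse complement ATTGG and TTTGAA or its reverse complement TTCAAA, and 2 of the Ube2c matches overlap on opposite strands. The sequences are from RefSeq, build GRCm38.p6, 5′ to 3′ on the strand of the gene: Ube2c at chr2:164769679-164769928 (plus), Ccnb2 at chr9:70421555-70421804 (minus) and Cdk1 at chr10:69352913-69353162 (minus).
Ube2c: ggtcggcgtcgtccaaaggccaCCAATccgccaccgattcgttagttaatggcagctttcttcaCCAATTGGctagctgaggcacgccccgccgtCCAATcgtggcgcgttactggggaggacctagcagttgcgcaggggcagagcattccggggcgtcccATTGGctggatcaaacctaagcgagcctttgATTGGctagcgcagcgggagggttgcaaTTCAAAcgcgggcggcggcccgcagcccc
Ccnb2: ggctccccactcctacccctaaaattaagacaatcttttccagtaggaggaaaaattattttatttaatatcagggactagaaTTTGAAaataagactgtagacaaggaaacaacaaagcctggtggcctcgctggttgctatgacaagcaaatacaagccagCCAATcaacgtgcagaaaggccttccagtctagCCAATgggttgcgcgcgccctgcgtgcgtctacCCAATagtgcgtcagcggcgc
Cdk1: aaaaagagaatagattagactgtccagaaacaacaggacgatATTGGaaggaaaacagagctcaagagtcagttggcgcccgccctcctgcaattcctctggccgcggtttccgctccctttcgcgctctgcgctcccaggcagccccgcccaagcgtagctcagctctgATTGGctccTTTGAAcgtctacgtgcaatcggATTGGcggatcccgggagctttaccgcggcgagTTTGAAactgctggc
Ube2c held 6 CCAAT matches and 1 of the homology region, Ccnb2 held 3 and 1, and Cdk1 held 3 and 2. Of the cell cycle genes tested, 30 had a promoter in the table, and 19 of them (63.3%) held CCAAT on either strand, against 37.5% of the 27025 genes of the table. The homology region letters were in 11 of the 30 (36.7%), against 18.3% of all. Of the 10 called higher with a promoter, 7 held CCAAT and 4 the homology region, and Birc5 held neither in this window. The CArG box was searched beside the contractile list and the HNF1 half-site beside the proximal tubule transporters. CArG letters were in 4 of 23 contractile genes tested (17.4%) and in 1 of the 11 called higher, against 1.62% of all. HNF1 letters were in 3 of 20 transporters tested (15.0%) and in 2 of the 4 called lower, against 7.49% of all. A match of letters is a description and not a bound site.

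Growth factor pathways had called members in both directions. Among 23 transforming growth factor beta and activin genes, 7 were higher and 0 lower, and 6 held without any 1 array, while quantile normalization left 4 and the covariate 3. The ligand Tgfb1 read 6.96, 6.58 and 7.08 on day 3 and 5.73, 5.47 and 5.44 in uninjured kidney without overlap, but was not called (adjusted p = 0.0576). Its type I receptor Tgfbr1 read 8.48, 8.72 and 8.23 in day 3 arrays and 5.93, 6.08 and 6.66 in uninjured arrays (change 2.25 ± 0.41, adjusted p = 0.00266, and 0.0922 with the covariate). Skil, a feedback repressor of Smad proteins, read 9.14, 8.41 and 8.77 on day 3 against 6.67, 5.94 and 6.72 in uninjured kidney, and the secreted follistatin-like Fstl1 10.87, 11.06 and 10.81 in day 3 arrays and 9.17, 8.71 and 7.86 in uninjured arrays. Among 19 bone morphogenetic protein genes, 3 were higher and 1 lower (median change -0.09), a called share of 21.1% beside 17.0% of all genes. The lower count was 2 without day 7 array 4 or with quantile normalization and 3 without day 7 array 6. The ligand Bmp4 changed by 1.71 (adjusted p = 0.173 with the covariate), Bmp7, a ligand made by tubule epithelium, read 5.55, 5.77 and 5.62 on day 3 against 6.63, 7.12 and 6.66 in uninjured kidney, and the target gene Id3 read 10.36, 10.23 and 10.22 in day 3 arrays and 8.20, 7.62 and 6.79 in uninjured arrays.

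Wnt genes had 5 of 28 tested higher and 2 lower (median change 0.33), with 3 higher and 1 lower with the covariate and 1 lower without day 3 array 1. Wnt5a, a noncanonical ligand, read 6.63, 7.55 and 7.40 in day 3 arrays and 4.58, 4.53 and 4.39 in uninjured arrays (change 2.69 ± 0.43, adjusted p = 0.00111). Of the secreted antagonists, Frzb read 8.98, 9.07 and 8.95 on day 3 against 5.34, 4.40 and 4.65 in uninjured kidney and Dkk3 9.03, 9.13 and 9.15 in day 3 arrays and 5.88, 6.14 and 6.08 in uninjured arrays, both higher on day 3. Dkk2 went the other way, at 6.44, 6.08 and 7.20 on day 3 against 10.74, 10.14 and 9.35 in uninjured kidney (change -3.50 ± 0.49, adjusted p = 0.000507). Sfrp2 was also lower, at 8.46, 10.21 and 10.56 on day 3 against 12.44, 12.20 and 11.74 in uninjured kidney, a call that did not hold without day 3 array 1 (adjusted p = 0.0524) or with the covariate (0.128). Axin2, a target of beta-catenin, had a change of 0.36 and was not called.

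Among 15 fibroblast growth factor genes, 4 were higher and 3 lower, with a median change of 0.11. The higher count was 1 without day 3 array 1 or with the covariate and 2 without day 3 array 2 or 3 or uninjured array 14 or 15. Fgf9, a ligand, read 4.46, 4.22 and 3.99 on day 3 and 7.21, 7.49 and 7.15 in uninjured kidney (change -3.06 ± 0.37, adjusted p = 0.000169), and Fgf1 5.97, 6.53 and 6.53 in day 3 arrays and 8.21, 7.84 and 7.34 in uninjured arrays, both lower. Spry1, an inhibitor induced by receptor tyrosine kinases, read 8.08, 8.54 and 8.26 on day 3 against 5.79, 5.63 and 5.29 in uninjured kidney. The insulin-like growth factor system had 2 of 12 higher and 3 lower, and no higher call held without day 3 array 1 or 2, uninjured array 13 or 15 or with the covariate, and 1 without UUO array 11 or with quantile normalization. The binding proteins Igfbp1 and Igfbp4 changed by -3.23 and -1.10. Of 12 Notch genes, 2 were higher and 2 lower, and no lower call held without day 3 array 1, uninjured array 14 or with the covariate. The lower count was 1 without any other single array except day 7 arrays 5 and 6 and UUO array 10. The 2 higher ones were Heyl, a Notch target of mural cells, at 8.28, 8.17 and 8.33 in day 3 arrays and 6.57, 5.55 and 6.18 in uninjured arrays, and the receptor Notch3, with a change of 1.16. Neither passed with the covariate (adjusted p = 0.0515 and 0.148). None of 13 hedgehog genes and none of 6 platelet-derived growth factor genes was called, beside 17.0% of all genes tested. Counts of 0 in lists this small do not set them apart. Limma's unadjusted p was under 0.05 for 2 hedgehog and 2 platelet-derived growth factor genes. Gli1 read 4.94, 4.93 and 4.62 on day 3 and 4.62, 4.90 and 4.84 in uninjured kidney.

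Of 14 retinoid genes tested, 3 were higher and 1 lower (median change -0.10), with 2 higher and 0 lower with the covariate and 0 lower without day 3 array 3 or uninjured array 13 or 15. The 3 higher genes were Aldh1a2, Aldh1a1 and the retinol carrier Rbp4 (change 0.51), and the lower one was the retinal reductase Dhrs3. The calls of Rbp4 and Dhrs3 held neither with the covariate nor without every single array. Aldh1a2, which makes retinoic acid in mesenchyme, read 10.59, 10.84 and 10.71 on day 3 and 5.12, 5.22 and 4.85 in uninjured kidney (change 5.65 ± 0.22, adjusted p = 4.18e-08). Aldh1a1, another enzyme of that step, read 7.84, 6.69 and 6.61 on day 3 against 3.28, 3.83 and 3.28 in uninjured kidney, while the related Aldh1a3 was not called (change -0.19). Prostaglandin genes had 2 of 10 higher and 1 lower. Ptgis, prostacyclin synthase, read 8.05, 7.88 and 7.77 in day 3 arrays and 5.36, 5.25 and 5.08 in uninjured arrays, and Hpgd, which inactivates prostaglandins, 9.26, 8.58 and 8.80 on day 3 against 5.20, 5.37 and 4.61 in uninjured kidney. Ptger3, a prostaglandin E receptor that tubule cells also carry, read 3.46, 4.16 and 3.87 in day 3 arrays and 7.24, 8.47 and 5.82 in uninjured arrays (adjusted p = 0.0713 with the covariate). The inducible cyclooxygenase Ptgs2 was dim throughout, with a change of 0.26.

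**Figure D4:**
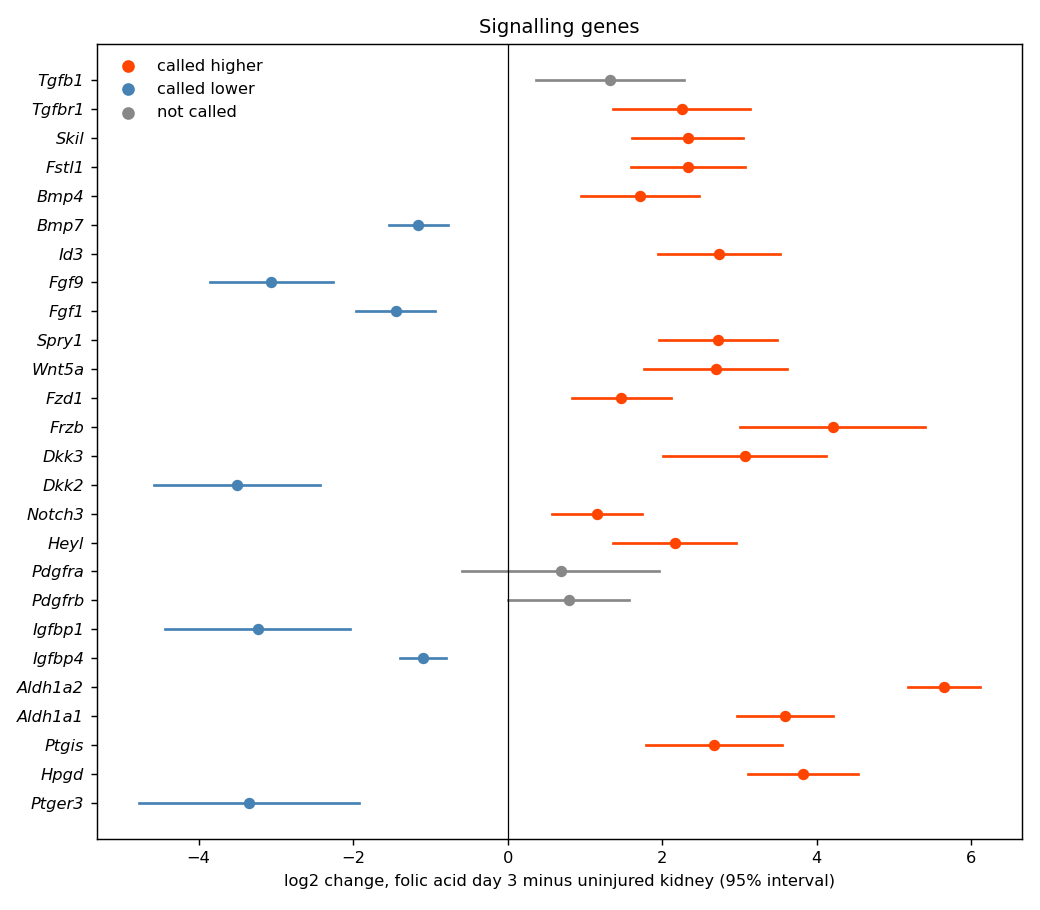
Log2 change of 26 signalling genes on folic acid day 3 against uninjured kidney (dots; lines are unadjusted 95% intervals from the fit over 15 arrays), coloured by call. Aldh1a2 had the largest increase at 5.65 and Dkk2 the largest decrease at -3.50 among those drawn, while Pdgfra and Pdgfrb were not called.

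Of 30 stromal transcription factors tested, 9 were higher and 4 lower (median change 0.26), but 5 higher once day 3 array 3 or uninjured array 14 was left out. With the covariate 2 were higher and 2 lower. Tcf21 had the largest increase (4.52), followed by Creb3l1, an endoplasmic reticulum-tethered factor that drives secretory and collagen genes, at 9.09, 8.97 and 9.07 on day 3 and 5.71, 5.81 and 5.97 in uninjured kidney. Foxc2, a mesenchymal forkhead factor, read 7.89, 7.28 and 7.85 on day 3 against 5.38, 5.49 and 4.98 in uninjured kidney, and Prrx1, a fibroblast homeobox factor, 7.35, 8.22 and 7.76 in day 3 arrays and 5.72, 6.20 and 6.02 in uninjured arrays. With the covariate Foxc2 and Prrx1 did not pass (adjusted p = 0.099 and 0.19). Wt1 read 4.16, 4.00 and 4.15 on day 3 against 6.85, 6.76 and 5.89 in uninjured kidney and the orphan receptor Nr2f1 7.00, 6.19 and 6.80 in day 3 arrays and 9.26, 8.56 and 7.69 in uninjured arrays, both lower on day 3. Wt1 is a podocyte gene as well. Hox genes had 3 of 26 higher and 3 lower, with 1 lower without day 3 array 1 and 6 with quantile normalization. With the covariate 0 were higher. Hoxd11 and Hoxa11, the kidney-patterning paralogs, changed by 2.17 and 1.78 (adjusted p = 0.2 and 0.0813 with the covariate), and Hoxb5 read 4.94, 6.15 and 5.28 on day 3 against 7.37, 6.98 and 7.36 in uninjured kidney.

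Among 22 stromal chemokines and cytokines, 6 were higher and 1 lower (median change 0.25), and all 7 calls held without any 1 array. Beside Il33 they were Cxcl14, a homeostatic chemokine, at 9.80, 9.28 and 9.81 on day 3 and 5.19, 4.92 and 5.24 in uninjured kidney, and Cxcl12, the ligand of Cxcr4, at 9.12, 8.64 and 9.06 in day 3 arrays and 5.63, 5.50 and 5.80 in uninjured arrays. The membrane-bound chemokines Cx3cl1 and Cxcl16 changed by 2.40 and 2.11, and Ccl19, a lymphoid chemokine, by 1.57 (adjusted p = 0.0852 with the covariate). Cxcl13, which attracts B cells, was lower, at 6.03, 5.63 and 5.96 on day 3 against 9.45, 8.90 and 7.75 in uninjured kidney. The monocyte chemokine Ccl2 overlapped between the groups at 5.59, 5.56 and 5.50 on day 3 against 4.82, 5.46 and 5.54 in uninjured kidney. For the interleukin-6 family, 4 of 12 were higher and 0 lower, and none of the 4 passed with the covariate. Osmr, the oncostatin M receptor, read 8.58, 9.89 and 10.07 in day 3 arrays and 7.49, 6.76 and 5.70 in uninjured arrays (change 2.86 ± 0.64, adjusted p = 0.00901, and 0.256 with the covariate), and the signalling kinase Jak1 changed by 1.43 (adjusted p = 0.0943 with the covariate).

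Interferon response genes moved in both directions, with 5 of 24 higher and 2 lower. The higher count was 3 without day 3 array 1 or 3 or uninjured array 14 or 15 and 2 with the covariate, and the lower count 4 with quantile normalization. Ifitm1, an antiviral membrane protein, read 9.73, 9.31 and 10.13 on day 3 and 5.90, 6.28 and 5.21 in uninjured kidney, and Gbp2, a guanylate-binding protein, 6.76, 7.22 and 6.27 on day 3 against 4.73, 4.86 and 3.81 in uninjured kidney. Rsad2, viperin, was lower at 5.44, 5.28 and 5.38 in day 3 arrays and 7.51, 7.61 and 7.49 in uninjured arrays, and so was H2-K1, a class I antigen-presenting molecule, at 8.30, 8.04 and 8.56 on day 3 against 10.23, 10.25 and 9.56 in uninjured kidney. The last is 1 of a family of near-identical genes that a probe set may not separate. Serping1, the C1 inhibitor, was the complement gene whose call held without any 1 array, in a list with 2 of 16 higher and 2 lower. The higher count was 1 with the covariate or without day 3 array 1 or 2, day 7 array 5 or 6, day 14 array 9, UUO array 11 or any uninjured array. Lower calls numbered 0 with the covariate or without day 3 array 3 or uninjured array 13 or 14, and 1 without day 3 array 2, any UUO array or uninjured array 15.

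Defence and secretory stress genes were called in part. Of 24 oxidative stress genes, 6 were higher and 1 lower. The count of lower calls was 0 with the covariate or without any single day 3 or UUO array, day 14 array 8 or uninjured array 14 or 15, and 3 without day 7 array 4 or with quantile normalization. Prdx4, the peroxiredoxin of the endoplasmic reticulum, read 10.57, 9.28 and 10.09 on day 3 and 6.30, 5.29 and 5.55 in uninjured kidney (change 4.26 ± 0.45, adjusted p = 7.42e-05). Mt1, a metallothionein, read 12.40, 12.31 and 12.38 in day 3 arrays and 8.73, 9.13 and 8.89 in uninjured arrays, and the thioredoxin Txn1 10.84, 11.00 and 10.79 on day 3 against 9.24, 9.39 and 9.54 in uninjured kidney. In the endoplasmic reticulum list 3 of 28 were higher and 1 lower, and 5 higher without UUO array 10. Lower calls numbered 2 without day 3 array 1, 4 with quantile normalization and 0 with the covariate. The 3 higher ones were trafficking genes: the retrieval receptors Kdelr3 (8.04, 8.06 and 7.39 in day 3 arrays and 4.33, 4.40 and 4.04 in uninjured arrays) and Kdelr2 (change 1.34), and the translocon subunit Sec61b (9.79, 9.64 and 9.58 on day 3 against 7.78, 7.81 and 7.72 in uninjured kidney). The chaperone Hspa5, a standard marker of the unfolded protein response, overlapped between the groups, with a change of -0.34. Of 26 immediate early and dissociation stress genes, 5 were higher and 2 lower, with 3 higher without uninjured array 15 and 1 lower without any single array except day 3 array 1, day 7 arrays 4 and 5 and day 14 array 8. With the covariate 2 were higher and 0 lower. Egr2 read 8.82, 9.57 and 9.38 in day 3 arrays and 5.71, 6.01 and 5.54 in uninjured arrays and the small heat shock protein Hspb1 10.01, 9.66 and 9.51 on day 3 against 6.27, 6.61 and 5.98 in uninjured kidney, while Fos overlapped at 5.69, 6.63 and 5.29 in day 3 arrays and 6.36, 5.93 and 6.00 in uninjured arrays.

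Energy genes were called in both directions. The respiratory chain and citrate cycle list had 1 of 31 higher and 4 lower (median change -0.54), but 13 lower with quantile normalization, 7 and 9 without day 7 arrays 4 and 6, and 0 with the covariate. The higher count was 0 without any single day 3 or uninjured array or with quantile normalization, and 2 with the covariate. Sdha, a succinate dehydrogenase subunit, read 9.93, 9.99 and 9.95 on day 3 and 11.14, 11.22 and 11.58 in uninjured kidney. Fatty acid oxidation had 3 of 23 higher and 5 lower, which is 34.8% of the list called beside 17.0% of all genes, with 3 lower without day 3 array 1, 2 without uninjured array 15 and 1 with the covariate. Etfa, which passes electrons from acyl-CoA dehydrogenases, read 8.82, 8.36 and 8.26 on day 3 against 9.96, 10.16 and 10.79 in uninjured kidney, and Eci2, a peroxisomal isomerase, 8.86, 8.42 and 8.38 in day 3 arrays and 6.17, 6.37 and 7.07 in uninjured arrays. Ldha, of lactate production, changed by 0.94 in a glycolysis and hypoxia list with 3 of 25 higher and 1 lower. With quantile normalization that list had 2 higher and 5 lower. The count of lower calls was 3 without uninjured array 13, 2 without day 7 array 4 or 6 or day 14 array 7, and 0 with the covariate. Sdha did not pass with the covariate (adjusted p = 0.0776).

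Tubule transporters and enzymes were frequent among the lowest 15. Thick limb and distal tubule genes had 14 of 21 tested lower and 0 higher (median change -1.72), of which 10 held without any 1 array and 5 passed with the covariate. Slc12a1, the sodium-potassium-chloride cotransporter of the thick limb, read 5.46, 5.06 and 4.45 on day 3 and 9.81, 10.65 and 8.77 in uninjured kidney (change -4.75 ± 0.66, adjusted p = 0.000437). Slc12a3, its counterpart in the distal convoluted tubule, read 5.01, 6.30 and 5.57 on day 3 against 9.11, 9.81 and 9.39 in uninjured kidney, and the potassium channel Kcnj1 5.33, 6.05 and 5.44 in day 3 arrays and 8.81, 8.98 and 8.47 in uninjured arrays. Egf, a growth factor of the same segments, read 5.25, 7.17 and 5.34 on day 3 against 10.51, 11.06 and 9.92 in uninjured kidney, and Kl, the FGF23 co-receptor klotho, 4.74, 4.21 and 4.07 in day 3 arrays and 8.45, 8.41 and 8.92 in uninjured arrays (change -4.25 ± 0.52, adjusted p = 0.000193). Collecting duct genes had 6 of 17 lower and 0 higher (median change -0.95), with 2 lower with the covariate. Scnn1g, an epithelial sodium channel subunit, read 6.23, 5.96 and 5.38 on day 3 against 8.40, 8.23 and 8.41 in uninjured kidney, and the water channel Aqp3 5.60, 6.13 and 6.47 in day 3 arrays and 7.64, 8.21 and 7.34 in uninjured arrays. The call of Egf did not hold with the covariate (adjusted p = 0.188).

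Proximal tubule transporters had 5 of 23 lower and 0 higher (median change -1.39). Lower calls numbered 1 without day 3 array 1 or 3 or uninjured array 14 or 15, and 3 without day 3 array 2, uninjured array 13, day 7 array 5 or any UUO array. It was 1 with the covariate as well. The call that always held was Slc22a8, an organic anion transporter, at 4.93, 4.39 and 4.48 on day 3 against 9.05, 9.55 and 10.89 in uninjured kidney. Proximal tubule metabolism had 8 of 22 lower and 1 higher (median change -1.83), and the lower count was 4 without day 3 array 2 or uninjured array 15 and 5 without day 3 array 1 or uninjured array 14. With the covariate it was 1. The higher count was 0 without day 3 array 1 or uninjured array 13 or 14, and 2 without day 3 array 3 or day 7 array 4 or 6. Cyp2j5, an arachidonic acid epoxygenase, read 5.75, 4.62 and 4.89 on day 3 against 8.94, 8.97 and 10.43 in uninjured kidney and passed with the covariate (adjusted p = 0.0301). Ugt3a2, a conjugating enzyme, read 6.90, 6.20 and 5.98 in day 3 arrays and 11.40, 11.35 and 12.08 in uninjured arrays, and the hydroxy acid oxidase Hao2 4.68, 4.35 and 5.33 on day 3 against 9.01, 9.39 and 10.65 in uninjured kidney. Neither passed with it (adjusted p = 0.232 and 0.167). Uninjured array 15 was the highest of its group in all 4 of these genes and in the proximal tubule marker mean. Of the other lowest 15, Dnase1, Keg1 and Rdh16f2 had changes of -4.90, -4.26 and -3.95 and did not pass with the covariate. Miox, Spp2, Hsd3b4 and Cyp2d26 had changes of -3.78, -4.31, -3.95 and -4.61, and lost the call both with the covariate and without single arrays, their highest adjusted p being 0.0716, 0.0684, 0.117 and 0.0757, each without uninjured array 15. The covariate is itself a mean of proximal tubule markers, and none was left out of it when tested. Losing a call with it was therefore partly built in for proximal tubule genes.

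Some developmental regulators of the nephron were lower as well: 5 of 14 nephron transcription factors were lower and 0 higher (median change -1.18), with 3 lower without day 3 array 1 or uninjured array 14 or 15 and 2 with the covariate. The distal nephron factor Pou3f3 read 6.01, 5.91 and 6.34 in day 3 arrays and 8.02, 8.45 and 8.67 in uninjured arrays, and Tfap2b 5.48, 5.57 and 5.29 on day 3 against 6.80, 6.79 and 6.77 in uninjured kidney. Pax8, of all nephron epithelium, read 4.50, 4.48 and 5.03 in day 3 arrays and 6.16, 5.87 and 5.98 in uninjured arrays (adjusted p = 0.0614 with the covariate). Podocyte genes had 4 of 8 lower and 0 higher (median change -1.22), and all 4 held both without any 1 array and with the covariate. Podxl, the podocyte sialomucin, read 6.30, 7.69 and 6.64 on day 3 against 9.69, 9.42 and 9.35 in uninjured kidney (change -2.61 ± 0.33, adjusted p = 0.000237), and nephrin (Nphs1) 4.95, 4.73 and 4.72 in day 3 arrays and 6.42, 6.40 and 5.66 in uninjured arrays. Podxl is also made by endothelium. Among 17 markers of injured or simple epithelium, 3 were higher, Lcn2 with them, and 1 was lower. The count of lower calls was 0 with the covariate or without day 3 array 1 or 2 or any uninjured array, and 2 without day 7 array 6 or with quantile normalization. Havcr1, the injury marker Kim-1, read 5.39, 7.49 and 7.62 on day 3 and 4.95, 4.77 and 4.64 in uninjured kidney and was not called (adjusted p = 0.12), with day 3 array 1 the low one of its group.

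Genes of stromal subtypes and of vessels moved in both directions. Of 18 resident and adventitial fibroblast genes 5 were higher and 4 lower, with 3 higher without day 3 array 1 and 2 lower without day 3 array 2 or 3 or uninjured array 13. Hsd11b1, which activates glucocorticoids, read 10.88, 10.83 and 10.46 in day 3 arrays and 5.89, 6.56 and 5.74 in uninjured arrays, and Cygb, cytoglobin of perivascular fibroblasts, 9.80, 9.74 and 10.22 on day 3 against 6.23, 6.33 and 6.18 in uninjured kidney. Cd34, of adventitial fibroblasts and endothelium, was lower at 4.59, 5.42 and 4.77 in day 3 arrays and 8.01, 7.11 and 6.33 in uninjured arrays. Pericyte and smooth muscle genes had 3 of 14 higher and 1 lower: the chloride channel Ano1 read 6.33, 7.33 and 6.99 on day 3 against 9.88, 9.44 and 8.78 in uninjured kidney, while Rgs5 had a change of -0.47. With the covariate 0 of that list were higher. Lower calls numbered 2 with the covariate or without day 3 array 1, day 14 array 7 or 8 or UUO array 10, and 3 with quantile normalization. Endothelial genes had 6 of 18 lower and 3 higher. The count of lower calls was 2 without uninjured array 14 and 3 without day 3 array 1 or 2 or uninjured array 13, and the higher count 1 without day 3 array 2 or uninjured array 15 and 0 with quantile normalization or the covariate. Ptprb, the endothelial phosphatase, read 6.70, 6.07 and 6.58 in day 3 arrays and 8.04, 8.19 and 7.83 in uninjured arrays, and Pecam1 overlapped at 6.13, 5.32 and 6.80 on day 3 against 6.32, 6.59 and 5.88 in uninjured kidney. Macrophage and dendritic cell genes had 4 of 22 higher and 0 lower, and 1 higher and 1 lower with the covariate. Lyz2, lysozyme of myeloid cells, read 7.29, 7.49 and 7.21 in day 3 arrays and 3.17, 3.96 and 5.90 in uninjured arrays, while the pan-leukocyte Ptprc was dim in both, at 3.85, 4.24 and 4.28 on day 3 against 3.97, 4.17 and 5.01 in uninjured kidney. Their mean over 24 markers was 5.53, 5.75 and 5.84 on day 3 and 5.18, 5.34 and 5.36 in uninjured kidney. Whether these cells contributed to other genes was not tested. Of the lists not described so far, cadherins and catenins had 1 of 12 higher, Cdh11, and 3 lower, with 1 lower without day 3 array 1 or uninjured array 14 or 15 or with the covariate. Renin-angiotensin and steroid receptor genes had 0 of 11 higher and 3 lower, with 1 lower with the covariate. Cholesterol and fatty acid synthesis had 0 of 15 higher and 3 lower, with 1 lower without day 3 array 2 or uninjured array 15 and 0 with the covariate. Targets of YAP and TAZ had 1 of 13 higher and axon guidance genes 1 of 21 higher and 2 lower, and none of these calls held without every single array in turn. Mesothelial, erythroid and Schwann cell lists had 0 higher and 1 lower each, of 6, 2 and 5 genes tested, of which the mesothelial call alone passed with the covariate. Quantile normalization gave 5 lower axon guidance genes.

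The day 3 samples were then set directly against folic acid day 7, the next time of the same model. Here 94 of 13523 genes passed (0.695%), of which 57 (0.422%) were higher and 37 (0.274%) lower on day 3. Leaving out day 7 array 5 gave 31 calls and leaving out day 7 array 6 gave 180. There were 40, 44 and 50 without day 3 arrays 1, 2 and 3, 62 without uninjured array 14, and 16 when only the 6 arrays compared were fitted. The proximal tubule marker mean was 8.37, 7.13 and 5.55 in the day 7 arrays, so day 7 arrays differed among themselves in it, and 160 genes passed with it as a covariate. Calls named next held whichever array was left out, unless said otherwise.

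The genes highest on day 3 relative to day 7 differed in their level at the other stages. Lrrn1 read 3.21, 3.47 and 3.31 in uninjured kidney, 9.47, 8.39 and 7.97 on day 3 and 3.19, 3.46 and 5.73 on day 7 (day 3 minus day 7 4.48 ± 0.58, adjusted p = 0.00426), with day 7 array 6 apart from the other two. Aldh1a1 read 3.28, 3.83 and 3.28 in uninjured kidney, 7.84, 6.69 and 6.61 on day 3 and 3.50, 3.90 and 3.47 on day 7 (difference 3.43 ± 0.29, adjusted p = 0.000102). Adam22, a membrane receptor of the ADAM family, read 6.32, 6.27 and 4.85 in uninjured kidney, 7.91, 8.24 and 6.95 on day 3 and 4.37, 4.93 and 5.19 on day 7. Cyp4a12a, a fatty acid hydroxylase with close paralogs, had a difference of 2.74 (adjusted p = 0.000225). Hrct1 and the steroid sulfate transporter Slc10a6 had differences of 2.65 and 2.43, but lost the call without single arrays, the highest adjusted p being 0.0992 and 0.14, both without day 3 array 1. Of the mitotic genes, 5 of 38 were higher on day 3 than on day 7 and 0 lower, but none of the 5 calls held without day 7 array 5. Kif20a, a mitotic kinesin, read 6.59, 7.28 and 6.60 in uninjured kidney, 8.58, 8.11 and 8.72 on day 3 and 6.99, 7.09 and 6.33 on day 7 (difference 1.67), and its adjusted p reached 0.14 without day 3 array 1. When only the 6 arrays of the 2 days were fitted, Lrrn1, Aldh1a1, Adam22, Slc10a6 and Kif20a were not called. With the mean of each gene's probe sets, the differences of Lrrn1 and Adam22 were 1.67 and 1.59, both still called.

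Genes lower on day 3 than on day 7 included antigen presentation and myeloid genes. Of the 22 macrophage and dendritic cell genes tested, 9 were lower and 0 higher. Lower calls numbered 4 without day 3 array 1 or day 7 array 5, 5 without day 3 array 2 or 3, 14 without day 14 array 8 and 16 with the covariate. The list's mean was 7.32, 8.14 and 8.19 on day 7. Cd74, the class II invariant chain, read 6.50, 6.72 and 6.48 in uninjured kidney, 6.00, 5.83 and 6.14 on day 3 and 10.27, 10.08 and 9.84 on day 7 (day 3 minus day 7 -4.07 ± 0.30, adjusted p = 4.43e-05). H2-Aa and H2-Ab1, class II chains, had differences of -3.56 and -3.96, and Ly86, the secreted MD-1 protein of B and myeloid cells, -3.52. Aplnr, the apelin receptor of endothelium, read 3.43, 3.39 and 3.73 in uninjured kidney, 3.31, 3.39 and 3.64 on day 3 and 8.49, 8.72 and 8.31 on day 7, and C1qb, of complement C1, had a difference of -3.50. Those 2 calls did not hold without single arrays, the highest adjusted p being 0.0853 and 0.123, both without day 3 array 1. Stromal genes were among the lower ones as well. The Wnt inhibitor Nkd2 read 5.58, 5.86 and 5.98 in uninjured kidney, 6.25, 6.42 and 6.44 on day 3 and 9.33, 10.26 and 9.37 on day 7, and the guidance factor Sema3d 3.17, 3.46 and 3.08 in uninjured kidney, 4.38, 5.48 and 3.95 on day 3 and 7.21, 7.79 and 8.29 on day 7. Ltbp2, a microfibril protein, had a difference of -2.73, and Mmp2 one of -2.45, with Mmp2 at 9.14, 8.72 and 8.53 on day 7. Sema3d, Ltbp2 and C1qb were not called when only the 6 arrays were fitted. As the mean of their probe sets, Aplnr, H2-Ab1 and Nkd2 had differences of -2.62, -2.32 and -1.96, again called. None of the 17 collagens was called between the days, where 0.695% of all genes tested were called. A count of 0 is near that share and does not set the collagens apart. Their median difference was 0.22, and limma's unadjusted p was under 0.05 for 5 of them.

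**Figure D5:**
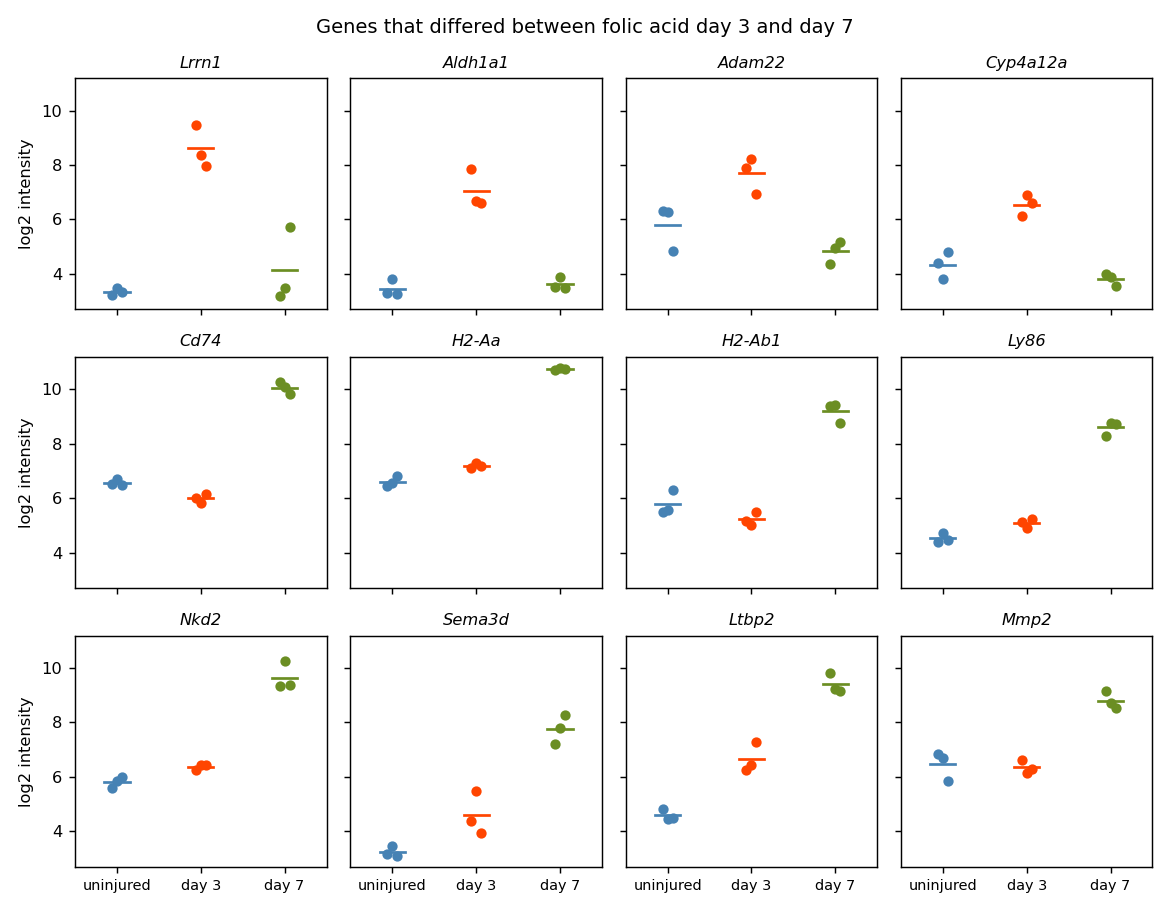
Log2 intensity in each array (dots; bars are means of 3 arrays) of 12 genes in uninjured kidney, at folic acid day 3 and at folic acid day 7. The top row holds genes higher on day 3 than on day 7, Lrrn1 among them at 9.47, 8.39 and 7.97 on day 3, and the lower rows hold genes lower on day 3, such as Cd74 at 6.00, 5.83 and 6.14 on day 3 and 10.27, 10.08 and 9.84 on day 7.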

How the data were processed

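RNA of PDGFra-positive fibroblasts, sorted from mouse kidney, was hybridised to 1-colour arrays after Trizol extraction and Nugen amplification, per the labels' protocols. The deposited values were log2 intensities per probe set, and the submitters' processing notes name RMA, affy and limma without versions. Of 45141 probe sets, 28898 had 1 gene in the platform annotation, 551 had several and 15692 are unnamed here. Each gene was represented by its probe set with the highest mean over 15 arrays, and 7180 genes had more than 1. Genes above the 40th percentile of their array in at least 3 arrays were tested.

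A linear model with 1 mean per group was fitted over the 15 arrays with limma 3.58.1 in R 4.3.3 (10 residual degrees of freedom), with Benjamini-Hochberg adjustment over all 13523 genes tested. Figures were drawn with matplotlib 3.10.9. Simulated data held independent normal noise, with 100 genes changed by 1 log2 unit and 100 by 2. Of these, 46% and 87% were recovered for day 3 against uninjured kidney, with 10 false calls. In the data 2304 genes were called, so these rates need not carry over. The number of arrays limits the precision. Among called genes, 25 had another probe set called in the opposite direction.

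The text names the 15 highest and 15 lowest called genes without overlap against uninjured kidney, the 6 highest and 6 lowest against day 7, members of the gene lists, and Pdgfra. Provisional symbols were left out. The comparison and the lists were chosen with earlier results of these data known. Alternatives covered normalization, variance model, array weights, the arrays fitted, the filter, probe sets, the threshold, each array left out, and the proximal tubule covariate. Promoters were taken from RefSeq, build GRCm38.p6, and searched on both strands for the motifs named in the text.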

Additional observations from a re-analysis of the deposited data

Results flagged for a closer look

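The direct test of folic acid day 3 against day 7 gave differences that passed limma's adjusted threshold for 17 genes named in the text, each as day 3 minus day 7 on the log2 scale. The higher ones were Lrrn1 (4.48), Aldh1a1 (3.43), Adam22 (2.87), Cyp4a12a (2.74), Hrct1 (2.65), Slc10a6 (2.43) and Kif20a (1.67). The lower ones among myeloid and endothelial genes were Aplnr (-5.06), Cd74 (-4.07), H2-Ab1 (-3.96), H2-Aa (-3.56), Ly86 (-3.52) and C1qb (-3.50). Among stromal genes they were Nkd2 (-3.28), Sema3d (-3.16), Ltbp2 (-2.73) and Mmp2 (-2.45). The calls of Hrct1, Slc10a6, Kif20a, Aplnr and C1qb did not hold without single arrays.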

How the results depend on the processing

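Against uninjured kidney, the 2304 calls became 961 with the proximal tubule marker mean as a covariate and 1114 at an adjusted p of 0.01, and ranged from 1463 to 2450 with 1 array left out. Against day 7, the 94 calls became 16 with only the 6 arrays compared, 160 with the covariate and 20 at an adjusted p of 0.01, and ranged from 31 to 180 with 1 array left out. The cause of these shifts was not tested, beyond the fewer arrays and the stricter threshold. Array weights gave 3439 and 81. These totals and those of the other alternatives not named lay within 1.5 times of those reported, but the lower calls against uninjured kidney, 864 as reported, were 1427 with array weights and 468 with a log2 change of at least 1. Array weights moved list counts of 3 or more against uninjured kidney by over 1.5 times for the higher counts of transforming growth factor beta (11), Wnt (8), translation (5) and endoplasmic reticulum (5) genes and the lower counts of insulin-like growth factor (5), Hox (10), respiratory chain (10) and collecting duct (10) genes. Of 154 named genes called against uninjured kidney, 143 held without any 1 array, 38 did not pass with the covariate, 13 did not pass at 0.01, and 0 reversed under any setting run. Of 17 named against day 7, 12 held without any 1 array, 8 did not pass with only the 6 arrays, and 0 reversed. With the mean of a gene's probe sets, 27 of 153 and 5 of 17 of these named changes with a value were over 1.5 times smaller: against uninjured kidney Clca3a2, Slco2b1, Lrrn1, Fbln5, Slc22a8, Spp2, Adam22, H2-Aa, Col4a3, Cemip, Plod1, Serpinf1, Acta2, Fgf9, Bmp7, Heyl, Sema3d, Pou3f3, Cxcl16, Rsad2, Gbp2, Rrm2, Eif4ebp1, Sdha, Prdx4, Mt1 and Ano1, and against day 7 Lrrn1, Adam22, Aplnr, H2-Ab1 and Nkd2. The covariate itself separates the groups, so a call lost with it cannot be told apart from lost precision. No paired analysis was possible because the numbers in the titles run through the whole series and no number is shared between groups. Probe sets near the dim end of an array limit the smallest level that can be read.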
